A study of Mus musculus with 3 samples.

Results

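The reads described here are the 5′ ends of the alanine transfer RNAs of the mouse, tRNA-Ala-AGC, tRNA-Ala-CGC and tRNA-Ala-TGC, named by the 3 bases of their anticodons. A read was taken when it began at base 1, 2 or 3 of a mature tRNA-Ala and ran along it exactly, with 1 substitution, or with 1 deletion of 1 to 3 bases. By this rule 1340 distinct read sequences of 4182219 in all were members, with 223052 of 55350573 reads. The small RNAs came from mature sperm released from the cauda epididymis, from adult testis and from adult uterus of CD1 mice, and no genotype or treatment set the groups apart, apart from a detergent lysis of somatic cells that the labels describe for sperm. Each group was 1 library. The spread between animals is therefore unknown, and no test was made. The labels do not say how many animals each library holds. Testis and uterus are mixtures of cell types, in which fewer cells of a type and less RNA per cell cannot be told apart.

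Alanine tRNAs carry alanine to the ribosome, and their first bases form a strand of the acceptor stem, then the D stem and D loop, then the anticodon stem. Cleavage in the D loop region or in the anticodon loop leaves 5′ fragments, and 5′ fragments of tRNAs are known as abundant small RNAs of mature sperm. tRNA bases carry many chemical modifications. The D loop is named for dihydrouridine, the guanine between the D stem and the anticodon stem is often dimethylated, and the first anticodon base of tRNA-Ala-AGC is deaminated to inosine, which reverse transcriptase copies as guanine. Such bases can stop the enzyme or be misread by it.

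The first set of sequences shows where the fragments come from. RefSeq (GRCm38.p6) names 33 tRNA-Ala genes: 13 with the anticodon AGC, 9 with CGC and 11 with TGC. Of these, 12 lie on chromosome 13 and 12 on chromosome X, and 8 of the 13 AGC genes are 73 bases long, where the other 25 tRNA-Ala genes have 72. The sequence of 1 gene was at hand, n-TAagc16 at chr13:21222586-21222657 on the plus strand, which lies outside any GENCODE gene. It lies 46 bases upstream of Gm32420, a noncoding RNA gene on the minus strand. The other types were read from sperm reads long enough to show the anticodon, and are given as the most read such sequence. The printed reads of AGC form 2 and CGC form 1 lack 1 of the 2 bases before the anticodon stem, a loss described further on, so each is 1 base shorter than its form. The anticodon is in capitals, and in AGC reads its first base is the guanine that stands for inosine.
n-TAagc16 gene: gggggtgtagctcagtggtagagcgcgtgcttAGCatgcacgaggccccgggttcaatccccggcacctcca
AGC form 1 read: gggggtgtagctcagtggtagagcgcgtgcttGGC
AGC form 2 read: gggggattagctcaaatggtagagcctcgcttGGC
CGC form 1 read: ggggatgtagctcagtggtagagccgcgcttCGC
CGC form 2 read: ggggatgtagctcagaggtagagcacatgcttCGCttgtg
TGC form 1 read: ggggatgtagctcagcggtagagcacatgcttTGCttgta

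In all, 9 such forms were found with 6803 sperm reads. AGC form 1, the sequence of n-TAagc16, had 3956 of them. AGC form 2 had 2079. Its D loop holds 1 base more, and AGC form 3, with 232 reads, has the same loop but adenine at base 5. TGC form 1 had 243 reads, CGC form 1 had 155 and CGC form 2 had 66. Counted from base 1 of the tRNA, CGC form 1 differs from the n-TAagc16 sequence by G5A, T28C and A33C, and TGC form 1 by G5A, T16C, G25A, G27A and A33T. AGC form 4 with 37 reads, TGC form 2 with 22 and TGC form 3 with 13 were the rarest. The references for counting were n-TAagc16 and the full 35 bases of CGC form 1 and TGC form 1.

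Most reads ended before the anticodon, and there base 5 and base 16 tell the types apart. The sequences below are leading reads of the main types, with base 5, base 16 (in the D loop) and, where the read reaches it, base 25 in capitals.
CGC type: ggggAtgtagctcagTggtagagc
AGC type: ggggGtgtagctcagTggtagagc
TGC type: ggggAtgtagctcagCggtagagcA
Adenine-16 type: ggggAtgtagctcagAggtagagcA
A short read of the CGC type also fits AGC form 4 and TGC form 3, and it is named for CGC form 1 because that form had 155 of the 205 sperm reads with this 5′ end that showed the anticodon. No testis or uterus read with this 5′ end showed the whole anticodon, so there the name stands for the sequence of the 5′ end. The adenine-16 type is shared by CGC form 2 and TGC form 2.

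The sperm library held 15690722 reads, that of testis 23783785 and that of uterus 15876066, and reads were 18 to 44 nt long. The libraries differed in the lengths they held. Reads of 29 to 34 nt were 69.0% of the sperm library and 79.5% of the testis library, but 0.427% of the uterus library. Marker microRNAs looked up after the values were seen gave a check on the labels. The stromal mmu-miR-199a-3p stood at 23.96 reads per 1000000 reads (RPM) in sperm, 28.9 in testis and 28885 in uterus. The 2 germ line microRNAs differed in where they were highest: mmu-miR-449a-5p stood at 2.49 RPM in sperm, at 37.5 in testis and at 1.76 in uterus, and mmu-miR-34c-3p at 38.4, 1.93 and 0.756 RPM. The epithelial mmu-miR-200b-3p had 199 RPM in sperm, with 0.168 in testis and 79.4 in uterus, and mmu-miR-200a-3p had 68.4, 0.631 and 267 RPM. The endothelial mmu-miR-126a-3p had 8.86, 0.0420 and 5.92 RPM, and mmu-miR-451a, a microRNA of red blood cells, 1.85, 1.93 and 75.9 RPM. The part of RNA from other cells in the results below was not tested.

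tRNA-Ala 5′ reads were most abundant in sperm. There were 118950 exact reads in the sperm library, against 2722 in testis and 2068 in uterus. These are 7581 RPM in sperm (95% interval 7538 to 7624), 114 RPM in testis (110 to 119) and 130 RPM in uterus (125 to 136). Sperm stood 66.2-fold above testis (63.8 to 68.8) and 58.2-fold above uterus (55.7 to 60.8), while testis and uterus lay close together, at a ratio of 0.879 (0.829 to 0.931). The intervals cover counting error only, because PCR copies were not marked and there was 1 library per group. Since 81.3% of sperm reads and 79.8% of testis reads were 29 nt or longer, against 0.429% in uterus, the share of all reads depends on what else each library holds. Among reads of 18 to 28 nt only, sperm stood 71.0-fold above testis and 303-fold above uterus, and testis 4.28-fold above uterus.

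**Figure D1:**
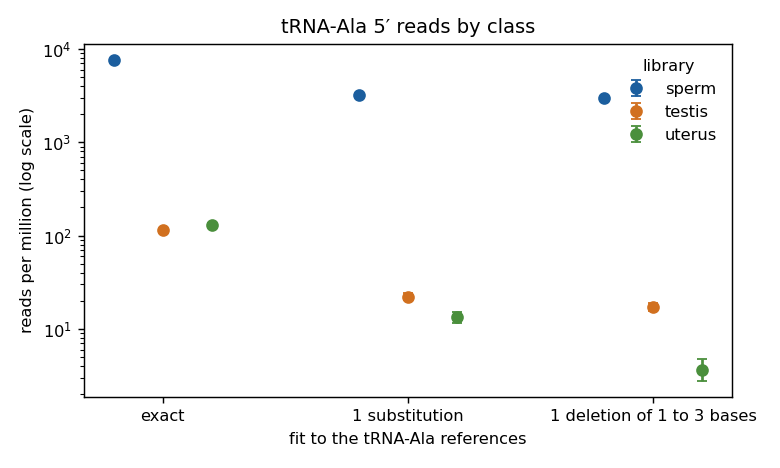
Reads per 1000000 reads (RPM), on a log scale, of tRNA-Ala 5′ reads that were exact, had 1 substitution or had 1 deletion of 1 to 3 bases, in the sperm, testis and uterus libraries, 1 library each. Bars are exact Poisson 95% intervals, mostly smaller than the points. The exact reads of sperm, at 7581 RPM, lie far above testis (114 RPM) and uterus (130 RPM), and the deletion reads of uterus, at 3.65 RPM, are the lowest value.

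The anticodon members were not in the same order in the 3 libraries. For tRNA-Ala-CGC, sperm had 69166 exact reads (4408 RPM, 4375 to 4441), testis 159 (6.69 RPM, 5.69 to 7.81) and uterus 1764 (111 RPM, 106 to 116). For tRNA-Ala-TGC, sperm had 43209 exact reads (2754 RPM, 2728 to 2780), testis 2549 (107 RPM, 103 to 111) and uterus 2 (0.126 RPM, 0.0153 to 0.455). For tRNA-Ala-AGC, sperm had 6575 exact reads (419 RPM, 409 to 429), testis 14 (0.589 RPM, 0.322 to 0.988) and uterus 302 (19.02 RPM, 16.9 to 21.3). Thus reads exact to the CGC reference led in sperm and uterus, and those exact to the TGC reference led in testis, where they held 93.6% of the exact reads. Within sperm, tRNA-Ala-CGC held 58.1% of exact reads, tRNA-Ala-TGC 36.3% and tRNA-Ala-AGC 5.53%. No interval of 1 member overlapped that of another within a library.

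The ratios between libraries differed by member as well. From testis to sperm tRNA-Ala-TGC was 25.7-fold higher (24.7 to 26.8), tRNA-Ala-CGC 659-fold (564 to 775) and tRNA-Ala-AGC 712-fold (424 to 1303). Against uterus the order turned: tRNA-Ala-AGC was 22.03-fold higher in sperm (19.6 to 24.8), tRNA-Ala-CGC 39.7-fold (37.8 to 41.6), and for tRNA-Ala-TGC the 2 uterus reads gave a ratio of 21860 with a counting interval from 6051 to 180508. Testis had 107 RPM of tRNA-Ala-TGC where uterus had 0.126, and uterus had 111 RPM of tRNA-Ala-CGC where testis had 6.69.

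**Figure D2:**
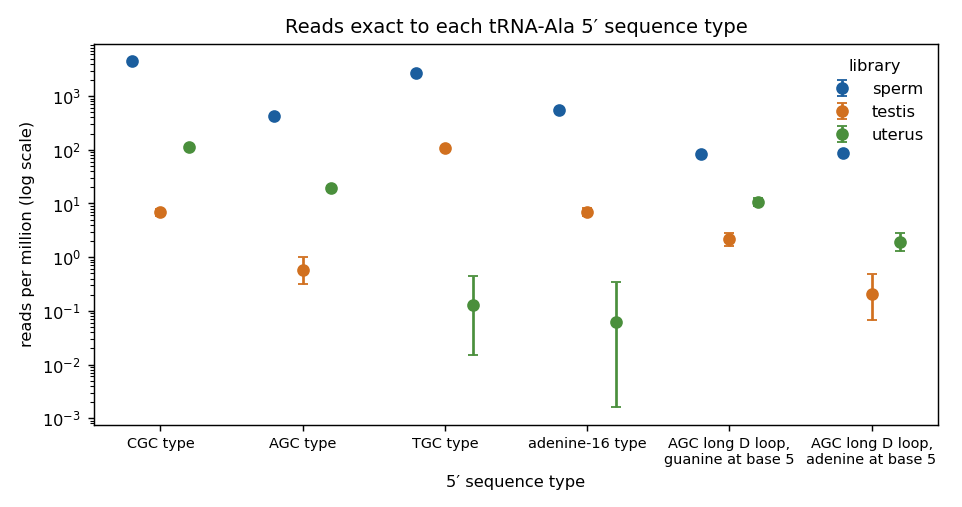
Reads per 1000000 reads (RPM), on a log scale, of reads that equal each of 6 tRNA-Ala 5′ sequence types exactly, in the sperm, testis and uterus libraries. Bars are exact Poisson 95% intervals. Uterus lies above testis for the CGC type (111 against 6.85 RPM), the AGC type and both long D loop types, and below it for the TGC type (0.126 against 107 RPM) and the adenine-16 type (0.0630 against 6.98 RPM).

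The base at position 16 differed between the libraries. Among reads with the tRNA-Ala 5′ end up to base 14, adenine at base 5, and the guanines of bases 17 and 18, sperm had 203566, testis 3453 and uterus 1975. Base 16 was T after a guanine in 61.8% of these in sperm, 9.70% in testis and 99.5% in uterus. It was C in 25.7%, 81.7% and 0.101%. It was A in 4.46%, 5.13% and 0.0506%. In another sequence base 15 itself was adenine, followed by T, in 7.67% of the sperm, 3.42% of the testis and 0.152% of the uterus reads. The uterus shares other than the first rest on 2, 1 and 3 reads, so that uterus held almost only the T16 sequence.

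A smaller part of the substitution reads equalled another of the tRNA-Ala forms found here. In sperm, 8519 of 51044 substitution reads (16.7%, 95% interval 16.4 to 17.02) equalled another tRNA-Ala form over their whole length, and in testis 167 of 528 (31.6%, 27.7 to 35.8) did. In uterus 4 of 210 did. Most of the sperm ones were adenine-16 reads. The larger part of the substitution reads equalled no tRNA-Ala form and no tRNA-Cys end (described below). It was 78.1% in sperm, 68.4% in testis and 95.7% in uterus. No deletion read equalled a form, but this was largely fixed beforehand, because no form was allowed to lack a base. The most frequent substitution in sperm was G15A on the CGC reference, with 12974 reads (827 RPM). The second was T16A or C16A in reads that fit both references, with 6762 reads (431 RPM), and C16A on the TGC reference added 1721.

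The adenine-15 reads were tied to another base in the same read. Of 1769 sperm reads of 25 nt or more with adenine at base 15 and T at base 16, 1756 (99.3%) had adenine at base 25. The C16 reads had adenine there in 16452 of 16483 (99.8%) and the A16 reads in 1788 of 1821 (98.2%). The T16 reads with guanine at base 15 had it in 601 of 11756 (5.11%, 4.72 to 5.53). In testis the same 3 types had adenine at base 25 in 71 of 71, 2282 of 2289 and 166 of 166 reads. The leading adenine-15 read that reaches base 25 is shown beside the leading TGC type read, with bases 5, 15, 16 and 25 in capitals for the first, and it had 1742 sperm, 60 testis and 0 uterus reads.
Adenine-15 type: ggggAtgtagctcaATggtagagcA
TGC type: ggggAtgtagctcagCggtagagcA
Only 4 sperm reads of the adenine-15 type were long enough to show an anticodon, and all had TGC. This is under the 10 reads asked of a form. Adenine-15 reads that end by base 24 therefore stayed among the substitutions, and those with adenine at base 25 as well carry 2 changes against each reference and lie outside the rule. The read printed here is one of the latter.

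In testis and uterus the T16 reads were not alike at base 25. Of 123 testis reads of 25 nt or more, 81 had adenine at base 25 (65.9%, 56.8 to 74.2), and of 147 uterus reads 63 had it (42.9%, 34.7 to 51.3). Both shares lie above the 5.11% of sperm beyond counting error. CGC form 1 has guanine at this base, so the T16 reads with adenine at base 25 do not match its sequence there. The T16 reads were chosen by bases before base 25 only. Reads counted as exact for the CGC type have guanine wherever they reach base 25, so the reads with adenine there are not among them. Most exact CGC type reads of testis and uterus end before base 25. Whether those came from a sequence with guanine or with adenine there is not known, so the CGC counts of these libraries may include both.

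Another source of altered reads was another tRNA. All 2655 sperm reads with the substitution G7A on the AGC reference (169 RPM) equalled the 5′ end of a tRNA with the anticodon GCA, that of cysteine, whose first 24 bases differ from n-TAagc16 by G7A alone or by G7A and T16G. Testis had no such read among its tRNA-Ala substitutions, and uterus had 5. Without them the altered share in sperm was 44.5%, against 45.2% with them.

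By number of reads, base 19, a T in the D loop, was altered most often in sperm without a match in any form. Among sperm reads of the CGC type that run past it, 27470 of 109519 lacked it (25.1%, 24.8 to 25.3) and 12.2% read another base there: G in 6.49%, C in 4.68% and A in 1.06%. Reads of the AGC type lacked it in 17.6% (16.99 to 18.2) and those of the TGC type in 13.8% (13.5 to 14.1). The share was lower in the other libraries. In testis it was 6.27% (3.87 to 9.52) for the CGC type and 5.83% (4.99 to 6.76) for the TGC type, and in uterus 2.30% (1.46 to 3.43) for the CGC type and 0.424% (0.0107 to 2.34) for the AGC type. These shares depend on the reads counted. Over the member reads that fit 1 reference, base 19 was missing in 20.7% of CGC, 20.8% of AGC and 12.8% of TGC reads in sperm. There CGC and AGC did not differ. In testis it was 3.38% for CGC and 5.27% for TGC, and in uterus 1.04% for CGC and 0.543% for AGC. The leading read of this kind, with the bases on either side of the lost one in capitals, was the third most abundant of all tRNA-Ala 5′ reads in sperm, with 15653 reads, and had 8 in testis and 8 in uterus.
CGC type without base 19: ggggatgtagctcagtgGAgagc

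**Figure D3:**
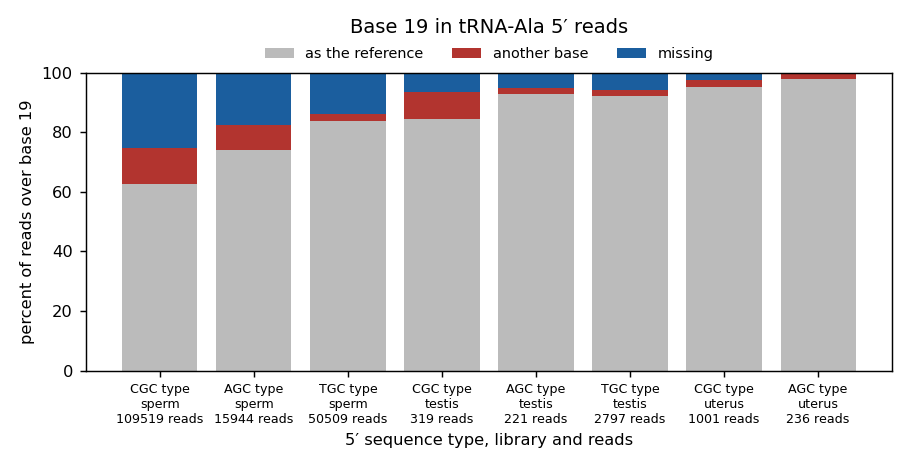
Percent of reads in which base 19 was as in the reference, another base or missing, for each 5′ sequence type and library with at least 100 reads over the base; the number of reads stands under each bar. The missing share falls from 25.1% in the CGC type of sperm to 0.424% in the AGC type of uterus.

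Base 25, the guanine between the D stem and the anticodon stem, was altered in most CGC reads that passed it. On the CGC reference it was missing in 57.2% and substituted in 20.1% of 11533 sperm reads that covered it, and on the AGC reference it was missing in 6.07% and substituted in 2.89% of 4532. On the TGC reference, which has adenine there, 0.109% of 22893 reads were substituted and none lacked the base. The AGC reads had a second kind of loss, of 2 bases in the repeated GCGC stretch that holds base 25, which is listed at base 23 because its place in the repeat cannot be told: 625 sperm, 74 testis and 30 uterus reads. A read that runs through the anticodon of tRNA-Ala-AGC already carries A33G, so a second change takes it outside the rule. Among all 3956 sperm reads of AGC form 1 through the anticodon, 34.5% had bases 25 and 26 as in the gene, 22.02% had 1 of them, 37.1% had neither and 6.37% had another pair. Of the 155 reads of CGC form 1, 7.74% had the reference pair, 49.0% had 1 base, 25.8% had neither and 17.4% had another pair. Of the 243 reads of TGC form 1, 98.8% had both bases as in the reference. That reference pair is the most read pair of these same reads, where the pair of CGC form 1 was taken from n-TAagc16. The shares of these forms are therefore not alike in kind. Reads of forms with adenine at base 25 thus nearly all had the same pair at this site, and reads of AGC form 1, with guanine there, did not. The reads of CGC form 1 were mixed at this site as well. Its guanine was taken as in n-TAagc16, on 12 of the 155 reads, and no CGC gene sequence was at hand to show it. In testis and uterus a single 28 nt read with the loss of 2 bases in the GCGC stretch was the leading altered read of tRNA-Ala-AGC, with 67 and 28 reads.

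**Figure D4:**
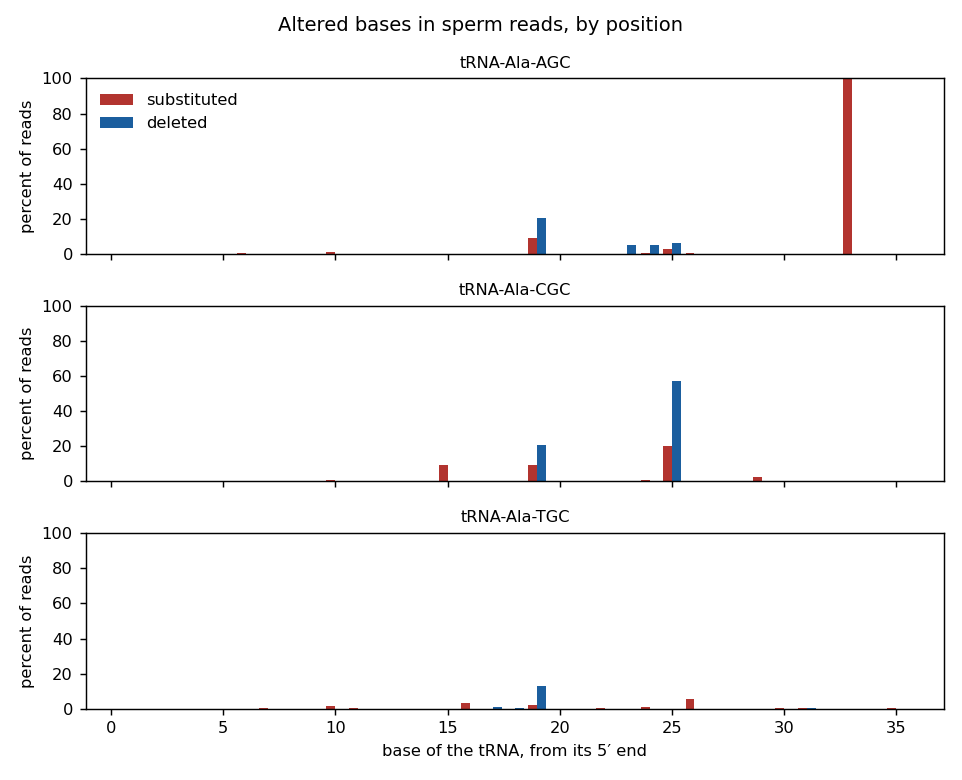
Percent of sperm reads over each base of the tRNA-Ala-AGC, tRNA-Ala-CGC and tRNA-Ala-TGC references that were substituted or deleted there, for bases covered by at least 100 reads; reads equal to tRNA-Cys and altered reads that fit several references are left out. Base 19 is altered on all 3 references, base 25 is missing in 57.2% of CGC reads, and base 33 is substituted in 99.8% of AGC reads.

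The first anticodon base of AGC forms 1 to 3 was read almost only as guanine. Of 3959 sperm reads of AGC form 1 that covered base 33 and the rest of the anticodon, 3956 had G (99.9%, 99.8 to 99.98), 1 had A, 1 C and 1 T. AGC form 2 had G in 2079 of 2082 reads and AGC form 3 in 232 of 233. Reads with the sequence of AGC form 4 up to the anticodon had G in 37 of 50 and T in 13. In this count the pair of bases before the anticodon stem was pooled. The 13 are the reads of TGC form 3, taken as the same sequence up to there only by this pooling. Of them, 5 had that pair as in n-TAagc16, 6 had another pair and 2 had neither base. Whether TGC form 3 shares that pair with AGC form 4 is therefore not known. Substitutions A33G alone made up 1698 sperm reads. The base after the anticodon was mostly T in the forms whose reads reached it: 84.6% of 169 reads of AGC form 1, 87.8% of 238 of TGC form 1, 84.1% of 69 of CGC form 1 and 84.8% of 66 of CGC form 2. It is adenine in the n-TAagc16 gene, and 3.55% of the AGC form 1 reads had A there. No other gene sequence was at hand for comparison at this base.

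The remaining frequent substitutions in sperm were T19G on the CGC reference (6615 reads), T19C (4792), G25T (1542), G10A (1318) and T19A (1219). The 3 most frequent deletions were the loss of base 19 on the CGC reference (27629 reads), on the TGC reference (7066) and the loss of base 25 on the CGC reference (6599). Altered reads of both kinds made up 45.2% (44.99 to 45.4) of the tRNA-Ala 5′ reads of sperm, 25.5% of those of testis and 11.5% of those of uterus. Among reads of 25 nt or more the shares were 45.4%, 19.1% and 58.9%, so the order of the libraries depends on the lengths counted. Sperm had 51044 reads with a substitution and 47067 with a deletion, testis 528 and 405, and uterus 210 and 58. Thus deletion reads in sperm stood 176-fold above testis (160 to 195) and 821-fold above uterus (635 to 1081), more than exact reads did.

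The fragments started at base 1. In sperm 99.9% of exact reads did so, in testis 100% and in uterus 98.98%. The long D loop form with guanine at base 5 was the exception among the types: 67.3% of its 52 testis reads and 61.2% of its 170 uterus reads started at base 1, against 98.8% of 1304 in sperm, and its leading uterus read of 29 nt, with 54 reads, started at base 3.

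Lengths set the libraries apart. The median length of exact reads was 24 nt in sperm, 25 nt in testis and 22 nt in uterus, and 97.5%, 98.7% and 99.8% of the exact reads were 18 to 28 nt long. In sperm, reads of the CGC type were 24 nt (28315 reads) or 23 nt (27894 reads), with 31 reads of 25 nt. The TGC type in sperm had 12538 reads of 23 nt, 12944 of 24 nt and 15564 of 25 nt, so that many of its reads ran 1 base further, to the adenine at base 25. In testis 1 sequence, the TGC type of 25 nt, made up 2233 of 3655 tRNA-Ala 5′ reads (61.1%) and 87.6% of the TGC type. In uterus the CGC type was spread over 371 reads of 21 nt, 387 of 22 nt, 309 of 23 nt and 475 of 24 nt.

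**Figure D5:**
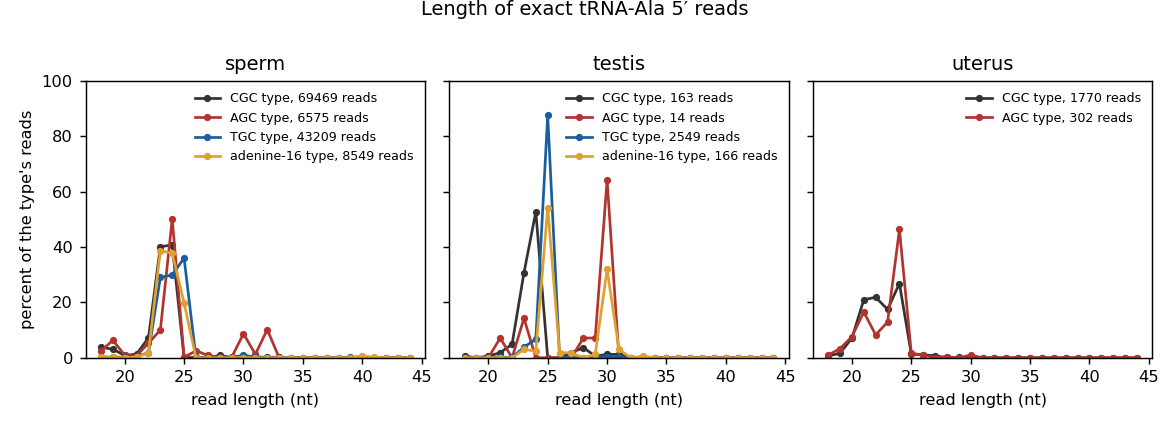
Percent of the exact reads of each 5′ sequence type at each read length (nt), in sperm, testis and uterus; types with fewer than 10 reads in a library are left out, and the number of reads is in each legend. Sperm reads peak at 23 to 25 nt, testis TGC type reads at 25 nt (87.6%), and uterus reads spread from 20 to 24 nt.

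Longer fragments were a small part, and no exact read of testis or uterus was 35 nt or longer. In sperm 2.31% of exact reads were 29 to 34 nt and 0.212% were 35 nt or more. Exact reads leave out long reads altered at base 25: over exact and altered reads together, 6.09% of sperm reads were 29 to 34 nt, and 14.8% of those with a deletion. In testis the share at 29 to 34 nt was 1.29% of exact reads and 4.62% of all tRNA-Ala 5′ reads. tRNA-Ala-AGC had the largest share of them, 20.3% of its exact reads at 29 nt or more, including 672 reads of 32 nt that end just before the anticodon and had none in testis or uterus. The AGC form 1 read through the anticodon printed above had 1350 reads in sperm and 0 in both tissues. In testis 9 of the 14 exact AGC reads were 30 nt long, and 53 adenine-16 reads were 30 nt long, against 5 in sperm.

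The leading exact fragments of sperm were the 24 nt read of tRNA-Ala-CGC (28315 reads, with 86 in testis and 475 in uterus), the 25 nt read of tRNA-Ala-TGC (15564, with 2233 in testis and 0 in uterus) and the 24 nt read of tRNA-Ala-AGC (3296, with 0 in testis and 140 in uterus). Among the other leading sperm reads were the 23 nt CGC read (27869), the 24 nt and 23 nt TGC reads (12938 and 12525), the 22 nt read without base 19 (8577), the adenine-15 reads of 23 nt (6175) and 24 nt (6024) and the 22 nt CGC read (4988). After the 25 nt TGC read, testis had most reads of the 24 nt TGC read (173) and of the 24 nt TGC read that lacks base 19 and ends at base 25 (141). The 3 leading uterus reads were CGC reads of 24 nt (475), 22 nt (385) and 21 nt (368).

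The long D loop AGC forms were scarce as short reads. The form with guanine at base 5 had 1304 exact reads in sperm (83.1 RPM), 52 in testis (2.19 RPM) and 170 in uterus (10.7 RPM), and the form with adenine had 1354, 5 and 31. The first held 0.9995% of the reads exact to a tRNA-Ala form in sperm and 7.47% in uterus. In reads through the anticodon from sperm it held 30.6%, so its place among the forms depends on the length of read that is counted.

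The 3′ end of the tRNA gave another picture for n-TAagc16. Reads exact to its 3′ end with the CCA tail numbered 215 in sperm (13.7 RPM), 4 in testis and 469 in uterus (29.5 RPM). Exact 5′ reads exceeded these 30.6-fold in sperm (26.7 to 35.2), and in uterus the ratio was 0.644 (0.555 to 0.746). The 3′ reads may be shared with other tRNA-Ala genes, whose sequences were not used here.

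Some short CGC reads cannot be assigned to a tRNA by sequence alone. Bases 1 to 24 of the CGC reference also stand in the GENCODE transcript Gm37608, and bases 1 to 23 in Gm37608 and Rnf214, and 56.8% of exact sperm reads, 5.47% of exact testis reads and 82.8% of exact uterus reads occur in some GENCODE transcript. Bases 1 to 24 of the AGC reference and bases 1 to 23 of the TGC reference stand in none. Bc1, a noncoding RNA with a tRNA-Ala-like 5′ part, differs from the CGC reference by G7T over 26 bases, and 103 sperm reads and no testis or uterus reads began at that part and equalled it.

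Other tRNAs with a sequence at hand gave the frame for these values. The 3 families whose ratios between libraries were nearest to those of tRNA-Ala, as Euclidean distance over log2 sperm over testis and log2 sperm over uterus in 3 libraries, were Arg-TCT, Ser-GCT (distance 3.91) and Val-CAC (4.25). Arg-TCT had 339 exact reads in sperm but 1 in testis and 0 in uterus, so its ratios rest on the 3 counts that stand for few or no reads. Its distance of 1.68 rests on the same counts, so its place as the nearest family is not established. Ser-GCT had 6898 exact sperm reads, 16 in testis and 28 in uterus. tRNA-Ala had log2 ratios of 6.05 over testis and 5.86 over uterus. Val-CAC had 9.30 and 8.61, from 82487 exact sperm reads, 199 in testis and 214 in uterus. Altered reads were 47.4% of Arg-TCT 5′ reads in sperm, 24.2% of Ser-GCT and 21.7% of Val-CAC, beside 45.2% of tRNA-Ala. Reads with a deletion were 21.7% of tRNA-Ala, 21.1% of Arg-TCT, 2.38% of Ser-GCT and 1.32% of Val-CAC. Outside tRNA-Ala, 12 of the 403 annotated tRNA genes had a sequence at hand. Among exact 5′ reads of tRNA-Ala and these 12 genes, tRNA-Ala came to 490101 per 1000000 in sperm, 917116 in testis and 826209 in uterus. This is not its share among all tRNAs.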

How the data were processed

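Small RNAs of 1 sperm, 1 testis and 1 uterus library were analysed from tables of distinct read sequences with their counts. Counts are whole numbers as deposited, with no normalization that the values show, and mm9 is the genome build named in the submitters' processing notes. For the aligner, the adapter trimming and the size range, nothing is given in the sources used here. Adapter ligation at both ends and RT-PCR are described in the labels, and both steps can favour some sequences and stop or misread at modified bases.

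All sequences were matched with Python 3.11.15 against the first 35 bases of 3 references. The AGC reference is RefSeq's n-TAagc16. No table gave CGC or TGC gene sequences, and the list of an earlier analysis that the design names as a fallback was not at hand, so these were read from sperm reads through the anticodon (at least 10 reads; forms 1 base from a form with 50 times more reads were left out). Bases 25 and 26 were pooled there, and taken as in n-TAagc16 where so read, and otherwise as the most read pair. Reads over 35 nt were judged on their first 35 bases. Exact went before 1 substitution, and that before 1 deletion, with 3 matching bases after it. A read that fits several references was counted once, for the set.

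Values are reads per 1000000 reads (RPM) with exact Poisson 95% intervals, shares with Clopper-Pearson intervals and ratios with conditional exact binomial intervals (scipy 1.17.1). A count of 0 was taken as at most 3 counts, up to 0.191 RPM in sperm, 0.126 in testis and 0.189 in uterus. The matching was run on simulated reads. Altered reads that equalled a reference, and deletion reads taken as substitutions, were dropped before scoring. Of the reads kept, 989 with a substitution and 973 with a deletion, 100% were put in their class. This value was largely fixed by the dropping and does not measure how often reads are put in a wrong class. Named reads follow a rule: leading exact fragments, the 10 leading sperm reads and 3 per tissue, the 10 leading substitutions and 3 deletions, forms at 1% or more, and the 3 nearest tRNA families with at least 100 exact sperm reads. The long D loop forms, the base 19 shares and the rarer forms were chosen after their values were seen. The members and lists were chosen with earlier results of these data known. Alternatives counted distinct sequences, other length ranges, starts, denominators and classes of read.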

Additional observations from a re-analysis of the deposited data

How the results depend on the processing

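Sperm stood above testis and uterus under each alternative that counted reads against all reads of a library or of a length range. The ratio over testis and the ratio over uterus were 7.52 and 1.11 over distinct sequences, where the interval over uterus was 0.757 to 1.67 and does not set sperm above uterus, 90.0 and 94.0 with altered reads, 71.0 and 303 at 18 to 28 nt, and 137 and 4.30 at 29 to 34 nt. With exact 5′ reads of tRNA-Ala and 12 other tRNA genes as the denominator they turned to 0.534 and 0.593. That is a share among the tRNAs with a sequence at hand, and not among all tRNAs or all reads. Testis over uterus, 0.879, turned to 4.28 at 18 to 28 nt and to 1.11 among reads of these tRNAs. With altered reads it was 1.04, with an interval of 0.991 to 1.10 that holds 1 and so shows no turn beyond counting error. It was 0.148 over distinct sequences and 0.0314 at 29 to 34 nt. The cause of these differences was not tested.

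The levels per 1000000 in sperm, testis and uterus were 78.3, 10.4 and 70.3 over distinct sequences, and 13834, 154 and 147 with altered reads. They were 8314, 124 and 143 exact to any form, and 254, 1.85 and 59.0 at 29 to 34 nt. Among reads of tRNA-Ala and the 12 other tRNA genes they were 490101, 917116 and 826209. At 18 to 28 nt sperm had 39617 and testis 558, and without single reads 8056 and 123. The altered share, 45.2% in sperm, 25.5% in testis and 11.5% in uterus, became 45.4%, 19.1% and 58.9% at 25 nt or more, where uterus has few reads. Counting reads equal to any form as exact gave 41.3% in sperm and 21.0% in testis. Without single reads uterus had 8.21%, and without tRNA-Cys reads, an alternative chosen after seeing the data, sperm had 44.5%. Median lengths became 23 nt in sperm and 23 nt in uterus with altered reads, and 26 nt in sperm and 24 nt in testis over distinct sequences. In 25 further cases the value stayed within its counting interval, and in 2 the median length was unchanged. No paired analysis was possible because each group was 1 library and no result comes from a test. Depth limits the TGC type in uterus, with 2 reads, and AGC in testis, with 14.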
